A study of Mus musculus with 9 samples.

Results

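The collagen genes of the mouse were followed in primary cultured renal cells treated with TNFα or with TNFα and ACHP. Members were all genes whose symbol is Col, a number, the letter a and a number: 44 of the 57010 genes in the table, of which 11 code for fibrillar chains, 8 for chains of basement membranes and 25 for other types. RNA was sequenced from cells grown out of digested kidneys of wild-type mice, and each culture was collected 6 h after treatment. PBS served as the control in 3 libraries, 20 ng/mL TNFα was given in 3, and 20 ng/mL TNFα with 1 µM ACHP in 3, ACHP being a small molecule that blocks NF-kB signalling. The series was designed around the induction of an adhesion molecule by TNFα, no group received ACHP alone, and the strain, sex and age of the mice are not in the labels. The labels do not say whether replicates came from separate animals or cultures, so p-values measure only the spread between these libraries, which may be technical.

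Collagens are secreted proteins whose chains wind around each other into a helix, and each gene codes for a single chain. Fibrillar collagens pack into the fibres of interstitial connective tissue, with types I and III as the bulk and type V setting fibre diameter. Type IV collagen forms the sheet of the basement membrane in separate networks: the chains of Col4a1 and Col4a2 pair in nearly every basement membrane, while those of Col4a3, Col4a4 and Col4a5 make the network of the mature glomerular filter and parts of the tubule, the one affected in Alport syndrome. In kidney fibrosis, fibroblasts and mural cells are known for laying down fibrillar collagen, whereas epithelial and podocyte cells contribute basement membrane chains.

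The libraries held 14194295 to 20892176 counts each. Of the 15 tubular epithelium markers examined, 13 were abundant enough to test, with summed levels of 6738 to 7463 CPM (counts relative to the scaled library total) over the 9 libraries, while Slc34a1, of the mature proximal tubule, had 1 count in all and Aqp2, of the collecting duct, had 0. Summed CPM of 15 fibroblast and mural cell markers was 594.8 to 694.3 with PBS, 556 to 573.3 with TNFα and 467 to 532.4 with TNFα and ACHP. Most of this sum was a single gene, Acta2, with means of 602, 525.4 and 467.6 CPM in these groups. Every other marker of the list averaged at most 8.15 CPM in any group. Lum and Dpt, which mark interstitial fibroblasts, had at most 5 counts in a library. Neuron transcripts set libraries apart: 15 neuron markers summed to 17.2 CPM in PBS replicate 1 and 15.9 to 18.4 in the 3 TNFα+ACHP libraries, against 38.9 to 85.6 in PBS replicates 2 and 3 and the 3 TNFα libraries. Summed CPM of 12 macrophage markers was 42.5 to 47.1 in the 6 libraries without ACHP and 25.3 to 28 with it. Csf1r, Cd14 and Cd68 hold much of this sum, at 12.1, 9.68 and 4.89 CPM with TNFα and 8.25, 9.4 and 4.37 with both agents. Over the 11 macrophage markers tested, the median log2 fold change was -2.95 for TNFα+ACHP against TNFα. By the test given below, 0 of them were called higher and 7 lower, against 2.71% and 4.46% of all tested genes. In bulk RNA, fewer cells of a type and less RNA per cell cannot be told apart.

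Counts were enough to test 25 of the 44 collagens: 9 of 11 fibrillar, all 8 of the basement membrane and 8 of 25 others. Level was compared between genes as RPKM, CPM divided by the kilobases of exon of the gene. Those kilobases take in every annotated exon, which can exceed the transcript present, so levels and ranks between genes depend on the annotation. Basement membrane chains dominated the collagen message, with a summed level of 262.5 ± 5.53 RPKM (SD, n = 3) with PBS, or 66.3% of all collagen RPKM, against 96.1 ± 2.51 for fibrillar chains (24.3%) and 37 ± 1.58 for the rest (9.36%). By mean over the 9 libraries, Col18a1 ranked first (64.5 RPKM), followed by Col4a3 (59.6), Col4a1 (51.1), Col5a2 (44.1), Col4a4 (30) and Col4a2 (27.2). By CPM, without the length, Col4a3 (594.3) stood above Col18a1 (452.8). Col1a1 stood at 18.9 RPKM and Col3a1, the chain of type III collagen, at 1.36. The most abundant fibrillar chain was thus one of type V collagen and not one of type I or III.

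**Figure D1:**
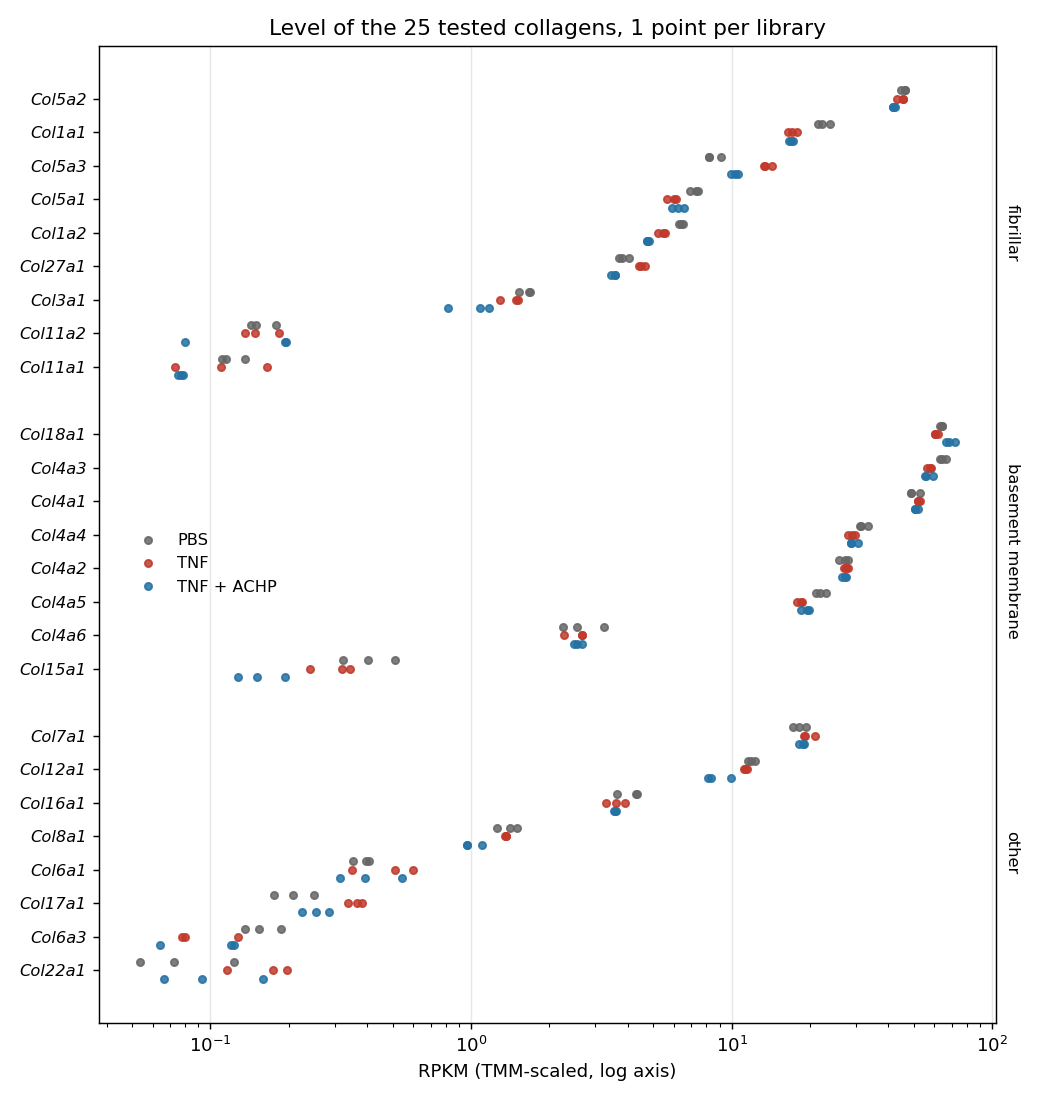
Level of each of the 25 tested collagens in each library, as RPKM on a log axis, with 1 point per library (grey PBS, red TNFα, blue TNFα+ACHP) and genes ordered by mean level within their class. The 3 TNFα libraries of Col5a3 lie at 13.3 to 14.25 RPKM, right of all 6 others, and the points of Col4a1 overlap between all 3 groups.

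The summed level of fibrillar chains was 95.7, 93.9 and 98.9 RPKM in the PBS libraries, 93.5, 90.2 and 95.9 with TNFα, and 86, 85.4 and 83.6 with TNFα and ACHP. PBS and TNFα libraries overlapped, while all 3 TNFα+ACHP libraries lay below all others. For basement membrane chains the sums were 268.8, 258.3 and 260.4 RPKM with PBS, 247.4, 245 and 252.2 with TNFα, and 255.2, 251.3 and 258.4 with TNFα and ACHP. Here the TNFα libraries lay below the PBS libraries, and the TNFα+ACHP libraries overlapped with both. The remaining collagens summed to 38.5, 35.4 and 37.2 RPKM with PBS, 37.2, 36.4 and 39.3 with TNFα and 34.8, 32.8 and 32.4 with both agents, so that only the last group stood apart. The sums are descriptions without a test.

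**Figure D2:**
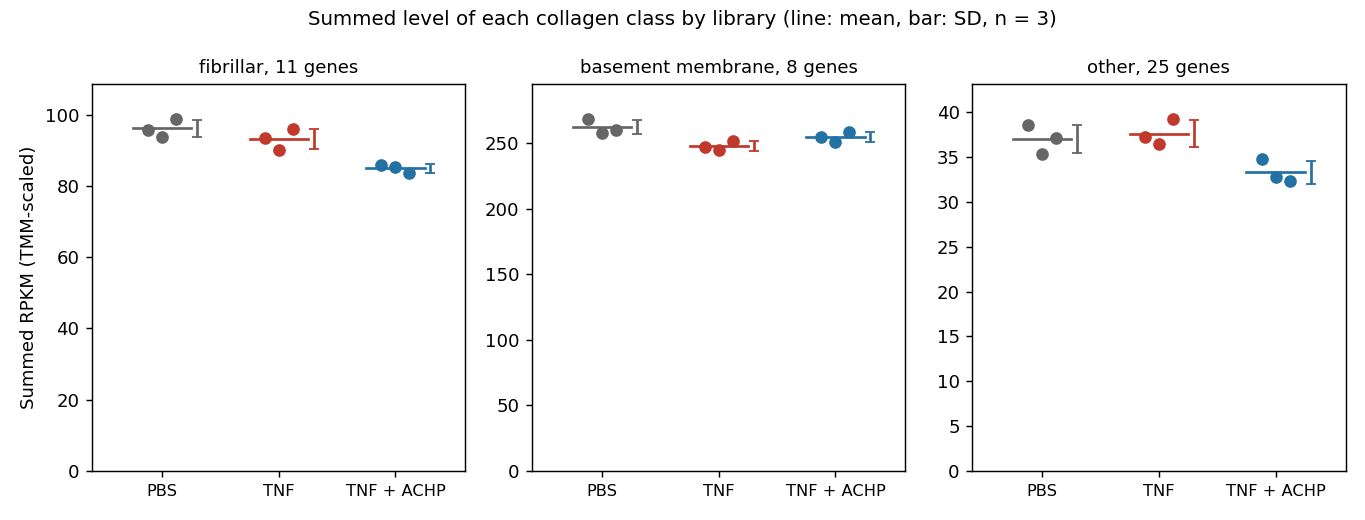
Summed RPKM of the collagens of each class in each library (points), with the group mean (line) and SD (bar, n = 3). Fibrillar sums are 83.6 to 86 RPKM with TNFα and ACHP and 90.2 or more in the other 6 libraries.

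TNFα changed individual chains in opposite directions within the fibrillar class. Calls rest on edgeR's quasi-likelihood test, with p-values adjusted by Benjamini-Hochberg over the 14747 genes tested and a threshold of 0.05. For TNFα versus PBS, 6.22% of all tested genes were called, 3.31% as higher and 2.91% as lower. Among the 25 tested collagens 2 rose and 6 fell (32%), with a median log2 fold change of -0.07 against -0.00 over all genes. By class, 2 fibrillar chains rose and 3 of 9 fell, 3 of 8 basement membrane chains fell, and 0 of the 8 others were called. An unadjusted p under 0.05 was seen for 5 of these 8 and for 2763 of the 14747 genes tested. Of the 5, Col7a1, Col17a1 and Col22a1 were higher and Col6a3 and Col16a1 lower. Of the 17 collagens with at least 10 CPM 8 were called, against 8.69% of the 9192 genes at that level. Groups did not overlap for 13 of the 25 collagens, and for 23.8% of all tested genes.

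Col5a3, which codes for the least widespread chain of type V collagen (chromosome 9, 20681346 to 20726363, GRCm39, as all gene positions here), had the largest change among the collagens called with TNFα. Its level was 8.17, 8.21 and 9.12 RPKM with PBS, 13.3, 13.4 and 14.25 with TNFα, and 10.6, 10.3 and 9.92 with TNFα and ACHP. All 3 groups were separate, with the inhibitor group between the others. TNFα raised it 1.6-fold (log2 fold change 0.68, SE 0.05, edgeR adjusted p = 2.8e-08). With ACHP it was lower than with TNFα alone by 0.41 on the log2 scale (SE 0.05, edgeR adjusted p = 2.2e-05) and still above PBS by 0.27 (SE 0.05, edgeR adjusted p = 0.003). In a fit with a term for the libraries rich in neuron transcripts, the neural library term, the ACHP difference was -0.32 and missed the threshold (edgeR adjusted p = 0.13). With log2 neuron marker level as a covariate, the difference of both agents from PBS was 0.31 and also missed it (edgeR adjusted p = 0.059).

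Col27a1 was the other fibrillar chain that rose. It codes for a collagen best known from cartilage (chromosome 4, 63132241 to 63253228). Its level was 4.03, 3.7 and 3.79 RPKM with PBS, 4.43, 4.48 and 4.66 with TNFα, and 3.57, 3.45 and 3.57 with TNFα and ACHP. TNFα libraries were above all others, and those with ACHP were the lowest. TNFα raised it by 18% (log2 fold change 0.24, SE 0.05, edgeR adjusted p = 0.0056), and with ACHP it was lower by 0.36 (SE 0.05, edgeR adjusted p = 0.00012). Against PBS, TNFα with ACHP gave -0.12 (95% interval -0.23 to -0.01, edgeR adjusted p = 0.21). Set against PBS replicate 1 alone, the TNFα value was 0.17 and not called (edgeR adjusted p = 0.32).

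The promoter windows of both chains that rose with TNFα are shown because NF-kB, the factor whose pathway ACHP inhibits, binds a known DNA motif. Each is the 250 bases before the RefSeq start of the gene on GRCm38.p6, read 5′ to 3′ on the strand of the gene, and capitals mark every match on either strand to a motif searched. These were the NF-kB consensus GGGRNWYYCC, the CCAAT box, the GC box GGGCGG and the TATA box TATAAA. In the consensus, R is A or G, W is A or T, Y is C or T and N is any base. The window of Col5a3 is chr9:20815068-20815317 (minus strand) and that of Col27a1 is chr4:63215162-63215411 (plus strand).
Col5a3: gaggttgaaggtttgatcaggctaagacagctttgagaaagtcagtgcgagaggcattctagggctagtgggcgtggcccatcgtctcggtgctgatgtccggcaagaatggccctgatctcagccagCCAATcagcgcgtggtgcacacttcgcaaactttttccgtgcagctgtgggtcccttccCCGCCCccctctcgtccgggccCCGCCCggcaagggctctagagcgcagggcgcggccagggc
Col27a1: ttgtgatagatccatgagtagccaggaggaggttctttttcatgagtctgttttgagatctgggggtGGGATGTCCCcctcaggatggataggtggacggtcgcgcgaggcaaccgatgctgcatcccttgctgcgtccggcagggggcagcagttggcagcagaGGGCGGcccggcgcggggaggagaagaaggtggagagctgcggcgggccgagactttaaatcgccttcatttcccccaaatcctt

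The window of Col27a1 held a match to the NF-kB consensus at 183 to 174 bases before the start. This match is on the reverse strand and reads GGGATGTCCC on the strand printed. The window of Col5a3 held a CCAAT match and, on the reverse strand, 2 GGGCGG matches, but no NF-kB match. RefSeq windows were matched by symbol for 35 of the 44 collagens, as 38 windows, and 20 tested collagens had 21 of them. The NF-kB consensus occurred in 3.9% of the 32851 windows of all genes and in 4 of the 38 collagen windows. Of the 21 windows of tested collagens, Col27a1 had the only match to it. GGGCGG was found in 32.7% of all windows and in 22 of the 38 (57.9%), CCAAT in 33.8% and in 13 (34.2%), and TATAAA in 12.4% and in 5 (13.2%). Matches to different motifs do not overlap in the windows printed. No window was matched for Col1a1, Col2a1, Col4a3, Col5a2, Col9a3, Col12a1, Col14a1, Col22a1 and Col26a1.

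Both chains of type I collagen, the main collagen of scar tissue, fell with TNFα. Col1a1 (chromosome 11, 94827050 to 94843868) stood at 22.2, 21.4 and 23.9 RPKM with PBS, 17, 16.5 and 17.9 with TNFα, and 16.7, 17.2 and 16.9 with TNFα and ACHP. Every PBS library was above every treated library, and both treated groups overlapped. TNFα lowered it by 23.9% (log2 fold change -0.39, SE 0.05, edgeR adjusted p = 9.6e-06). Adding ACHP gave a further -0.02 (95% interval -0.11 to 0.08, edgeR adjusted p = 0.87), and the difference from PBS with both agents was -0.41 (SE 0.04, edgeR adjusted p = 1.3e-05).

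Col1a2 (chromosome 6, 4504814 to 4541544), the partner chain, fell in steps. It measured 6.28, 6.42 and 6.5 RPKM with PBS, 5.45, 5.24 and 5.57 with TNFα, and 4.73, 4.84 and 4.73 with both agents, and all 3 groups were separate. The log2 fold change was -0.24 with TNFα (SE 0.04, edgeR adjusted p = 0.0016), -0.18 for ACHP on top of TNFα (SE 0.04, edgeR adjusted p = 0.015) and -0.42 for both agents against PBS (SE 0.04, edgeR adjusted p = 9.6e-06). The ratio of Col1a1 to Col1a2 was 3.52 ± 0.17 with PBS, 3.16 ± 0.05 with TNFα and 3.55 ± 0.02 with TNFα and ACHP (RPKM ratio, SD, n = 3). Its size rests on annotated exon lengths of 6563 bases for Col1a1 and 12426 for Col1a2. In CPM, the PBS means were 147.8 for Col1a1 and 79.5 for Col1a2. The step with ACHP missed the threshold without TNFα replicate 1 (edgeR adjusted p = 0.063), without TNFα replicate 3 (0.074), without TNFα+ACHP replicate 3 (0.052) and with the neural library term (-0.14, edgeR adjusted p = 0.5). The TNFα call was lost against PBS replicate 1 alone (-0.21, edgeR adjusted p = 0.093).

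Col3a1, the chain of type III collagen (chromosome 1, 45350698 to 45388866), was called only where ACHP was present. Its level was 1.53, 1.67 and 1.68 RPKM with PBS, 1.49, 1.29 and 1.51 with TNFα, and 1.09, 1.17 and 0.82 with TNFα and ACHP. The last group was below all others, and the PBS and TNFα groups did not overlap either. TNFα gave -0.19 (95% interval -0.41 to 0.04, edgeR adjusted p = 0.37), ACHP on top of TNFα lowered it by 27.8% (log2 fold change -0.47, SE 0.11, edgeR adjusted p = 0.014), and both agents against PBS gave -0.66 (SE 0.11, edgeR adjusted p = 0.0011). Between ACHP and TNFα the call was lost without TNFα replicate 1 (-0.44, edgeR adjusted p = 0.077), TNFα replicate 3 (-0.43, 0.07) or TNFα+ACHP replicate 3 (-0.34, 0.075). It was -0.34 with the neural library term (edgeR adjusted p = 0.5), and the difference from PBS was then -0.56 (edgeR adjusted p = 0.1).

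The chains of type V collagen did not move together. Col5a1 (chromosome 2, 27776437 to 27929526), the chain present in most type V molecules, stood at 6.9, 7.32 and 7.45 RPKM with PBS, 6.03, 5.66 and 6.11 with TNFα, and 6.58, 6.24 and 5.88 with both agents. All PBS libraries were above all treated ones. It fell by 0.28 on the log2 scale with TNFα (SE 0.05, edgeR adjusted p = 0.0023), differed by 0.07 when ACHP was added (95% interval -0.04 to 0.18, edgeR adjusted p = 0.51), and was below PBS by 0.21 with both agents (SE 0.05, edgeR adjusted p = 0.018). The last call was lost without PBS replicate 2, PBS replicate 3, TNFα+ACHP replicate 2 or TNFα+ACHP replicate 3 (-0.22 to -0.18, edgeR adjusted p = 0.051 to 0.11) and with the neural library term (-0.15, edgeR adjusted p = 0.51). Against PBS replicate 1 alone, the TNFα value was -0.21 (edgeR adjusted p = 0.17).

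Col5a2 (chromosome 1, 45413481 to 45542442), the other common type V chain and the most abundant fibrillar message, measured 46.3, 44.8 and 46.1 RPKM with PBS, 45.5, 43.2 and 45.5 with TNFα, and 42.5, 41.8 and 41.5 with both agents. PBS and TNFα overlapped, and the inhibitor group lay below both. The TNFα difference was -0.03 (95% interval -0.10 to 0.04, edgeR adjusted p = 0.71), and it fell by 0.13 with both agents (SE 0.03, edgeR adjusted p = 0.028). The call was lost, at values of -0.13 to -0.12, without PBS replicate 1 (edgeR adjusted p = 0.061), TNFα+ACHP replicate 2 (0.064) or TNFα+ACHP replicate 3 (0.11), and in the fit of only the 6 libraries compared (0.053). With the neural library term it was -0.14 (edgeR adjusted p = 0.22).

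Within each library the ratio of Col5a3 to Col5a1 was 1.18, 1.12 and 1.22 with PBS, 2.2, 2.37 and 2.33 with TNFα, and 1.61, 1.65 and 1.69 with TNFα and ACHP. The 3 groups of this ratio were separate, with TNFα the highest. Against Col5a2, Col5a3 went from 0.18, 0.18 and 0.2 with PBS to 0.29, 0.31 and 0.31 with TNFα and 0.25, 0.25 and 0.24 with both agents. These ratios describe the messages of single genes and carry no test.

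**Figure D3:**
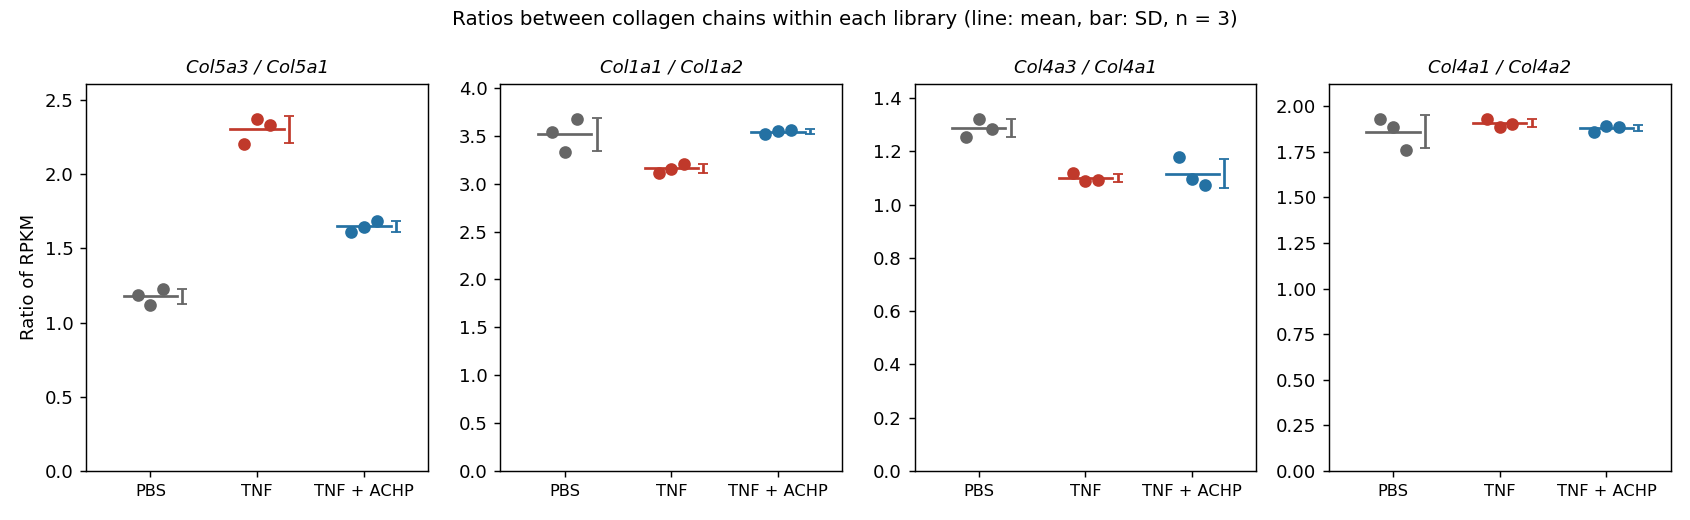
RPKM ratio of paired chains within each library (points), with the group mean (line) and SD (bar, n = 3). Col5a3 over Col5a1 rises from 1.12 to 1.22 with PBS to 2.2 to 2.37 with TNFα, while Col4a1 over Col4a2 overlaps in all 3 groups.

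The 2 remaining tested fibrillar chains, Col11a1 and Col11a2, which are minor chains of cartilage fibres, were near the limit of detection with 15 to 33 and 9 to 28 counts per library. Neither was called, and their intervals for TNFα versus PBS reached from -0.72 to 0.59 and from -0.76 to 0.72 on the log2 scale. Of 12 fibroblast and mural cell markers tested, 0 rose and 1 fell with TNFα (2.91% of all tested genes fell), 0 and 3 with ACHP against TNFα (4.46%), and 0 and 4 with both agents against PBS (3.87%), with medians of -0.12, -0.33 and -0.31. Acta2, smooth muscle actin of myofibroblasts, held 81134 of their counts, and Postn, the next, 1105. Acta2 fell by 0.20 with TNFα (SE 0.05, edgeR adjusted p = 0.022) and by 0.37 with both agents (SE 0.05, edgeR adjusted p = 0.00019). The part of these cells in the fibrillar results was not tested.

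Among basement membrane chains, the Alport network fell with TNFα while the common pair did not change detectably. Col4a3 (chromosome 1, 82564642 to 82699780) stood at 66.3, 64.4 and 62.9 RPKM with PBS, 58.2, 56.5 and 58 with TNFα, and 59.4, 55.3 and 55.7 with both agents. All PBS libraries were above all treated ones, and the treated groups overlapped. It fell by 10.8% with TNFα (log2 fold change -0.17, SE 0.04, edgeR adjusted p = 0.0063), differed by -0.02 when ACHP was added (95% interval -0.09 to 0.06, edgeR adjusted p = 0.83) and stayed below PBS by 0.18 (SE 0.04, edgeR adjusted p = 0.003). C430014B12Rik shares 5.6% of the Col4a3 exon length, and reads there would not be counted for either gene.

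Col4a5 (chromosome X, 140258381 to 140472230), the gene of the X-linked form of Alport syndrome, measured 21.9, 21.2 and 23 RPKM with PBS, 18.6, 17.8 and 18.5 with TNFα, and 18.5, 19.5 and 19.9 with both agents. PBS was again apart from both treated groups. It fell by 16.8% with TNFα (log2 fold change -0.27, SE 0.04, edgeR adjusted p = 0.00048) and was lower than PBS by 0.19 with both agents (SE 0.04, edgeR adjusted p = 0.009). ACHP on top of TNFα gave 0.08 (95% interval -0.01 to 0.17, edgeR adjusted p = 0.33). The difference of both agents from PBS was -0.18 with the neural library term (edgeR adjusted p = 0.21).

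Col4a4 (chromosome 1, 82426144 to 82564570) was at 33.3, 31.5 and 31.2 RPKM with PBS, 28.1, 28.9 and 29.6 with TNFα, and 30.6, 28.6 and 28.6 with both agents. Its PBS libraries also lay above all treated ones. The TNFα difference was -0.15 (SE 0.04, edgeR adjusted p = 0.024), and that of both agents from PBS was -0.13 (SE 0.04, edgeR adjusted p = 0.054). The latter lay at the threshold. It was called in DESeq2 (-0.13, adjusted p = 0.029), without PBS replicate 3 (-0.14, edgeR adjusted p = 0.03) and without TNFα+ACHP replicate 1 (-0.16, 0.023). RLE factors, no filter, the 1 CPM filter and the replicate block also gave a call (edgeR adjusted p = 0.031 to 0.048), and the remaining settings did not. The TNFα call was lost without PBS replicate 1 (-0.12, edgeR adjusted p = 0.082), TNFα replicate 1 (-0.13, 0.13) or TNFα replicate 2 (-0.15, 0.082), and with the neural library term (-0.12, 0.089).

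Col4a4 and Col4a3 lie head to head with 71 bases between them in GRCm39, and their ratio held from 1.93 to 2.07 in all 9 libraries. The stretch between both starts is shown because the pair fell together. It is chr1:82586850-82586920 in GRCm38.p6 from RefSeq, on the minus strand, in the direction of Col4a4, and none of the 4 motifs occurs in it.
Col4a4 to Col4a3: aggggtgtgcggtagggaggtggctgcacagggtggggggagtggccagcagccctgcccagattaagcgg

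Col4a1, the main chain of the common network (chromosome 8, 11248423 to 11362826), was at 52.8, 48.7 and 49 RPKM with PBS, 52.1, 51.8 and 53 with TNFα, and 50.4, 50.4 and 52 with both agents. Its partner Col4a2 (chromosome 8, 11362805 to 11499287), named here after its values were seen, was at 27.4, 25.8 and 27.9 with PBS, 27, 27.4 and 27.9 with TNFα, and 27.1, 26.6 and 27.6 with both agents. Groups overlapped for both chains in every comparison. With TNFα, Col4a1 differed by 0.06 (95% interval -0.01 to 0.14, edgeR adjusted p = 0.4) and Col4a2 by 0.02 (95% interval -0.06 to 0.10, edgeR adjusted p = 0.82). The intervals of Col4a3 (-0.24 to -0.09) and Col4a5 (-0.35 to -0.18) lie below both, although the difference between chains was not tested. The ratio of Col4a3 to Col4a1 was 1.26, 1.32 and 1.28 with PBS, 1.12, 1.09 and 1.09 with TNFα, and 1.18, 1.1 and 1.07 with both agents. Col4a6, a chain of the basement membranes of smooth muscle, lies head to head with Col4a5 at a distance of 1308 bases. Its level over all libraries was 2.59 RPKM, its groups overlapped, and its TNFα difference was -0.08 (95% interval -0.30 to 0.14, edgeR adjusted p = 0.75).

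Podocytes are the known source of the Alport network in the glomerulus. Summed CPM of 7 podocyte markers was 141.9 to 163.3 with PBS, 133.2 to 138.1 with TNFα and 137.3 to 146.9 with both agents. Of 6 tested, 0 rose and 2 fell with TNFα, against 3.31% and 2.91% of all tested genes. Among these was Synpo, an actin-binding protein of foot processes, which fell by 0.37 on the log2 scale (SE 0.07, edgeR adjusted p = 0.0037), while Podxl, podocalyxin, was at -0.05 (edgeR adjusted p = 0.72). Nphs1, nephrin, had at most 7 counts in a library. The part of these cells in the Col4a3, Col4a4 and Col4a5 results was not tested.

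Col18a1 and Col15a1 are the basement membrane collagens that carry the endostatin domain or its relative. Col18a1 (chromosome 10, 76888012 to 77002382) measured 64.2, 63.1 and 63.9 RPKM with PBS, 60.5, 60.2 and 62.1 with TNFα, and 66.4, 68.2 and 71.9 with both agents. All 3 groups were separate, with TNFα lowest and the inhibitor group highest. It rose by 0.17 when ACHP was added to TNFα (SE 0.03, edgeR adjusted p = 0.0033), the only collagen called higher in that comparison. The TNFα difference was -0.06 (95% interval -0.14 to 0.01, edgeR adjusted p = 0.34) and that of both agents from PBS was 0.11 (95% interval 0.04 to 0.18, edgeR adjusted p = 0.064). The ACHP value was 0.16 with the neural library term (edgeR adjusted p = 0.31). Of 13 tubular epithelium markers tested, 5 rose and 0 fell when ACHP was added, against 2.71% and 4.46% of all tested genes, and 8 were not called. Their part in the Col18a1 result was not tested.

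Col15a1 (chromosome 4, 47208161 to 47313167) was rare, with 46, 46 and 38 counts with PBS, 37, 23 and 34 with TNFα, and 20, 17 and 15 with both agents, or 0.51, 0.4 and 0.32, then 0.32, 0.24 and 0.34, then 0.19, 0.13 and 0.15 RPKM. The group with both agents was below all others. It fell by 61.8% with both agents against PBS (log2 fold change -1.39, SE 0.28, edgeR adjusted p = 0.005). The steps were -0.44 for TNFα (95% interval -0.98 to 0.11, edgeR adjusted p = 0.4) and -0.95 for ACHP on top of it (95% interval -1.57 to -0.34, edgeR adjusted p = 0.055). The ACHP step was called in some other settings, such as no filter (edgeR adjusted p = 0.043) and only the 6 libraries compared (0.039), and not in most.

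The ACHP comparison as a whole called 1 collagen higher and 6 lower of 25 (28%), against 7.17% of all tested genes, 2.71% higher and 4.46% lower. At 10 CPM or more it called 6 of 17, against 8.1% of all such genes. The 6 lower ones were 4 fibrillar chains (Col1a2, Col3a1, Col5a3 and Col27a1) and Col12a1 and Col8a1 of the other types. The class medians were -0.18 for fibrillar, -0.00 for basement membrane and -0.30 for other chains, against 0.00 over all genes. Groups did not overlap for 11 of 25, against 25.7% of tested genes. All 3 TNFα libraries and none of the 3 with ACHP were rich in neuron transcripts. In the fit with the neural library term, whose size can be read only from the difference between PBS replicate 1 and the other PBS libraries, 2 collagens, Col12a1 and Col27a1, were called lower and 0 higher. Calls over all tested genes dropped to 0.97% in that fit.

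Both agents against PBS called 1 collagen higher and 10 lower of 25 (44%), against 6.04% of all tested genes, 2.18% higher and 3.87% lower. The lower ones were 5 fibrillar chains (Col1a1, Col1a2, Col3a1, Col5a1, Col5a2), 3 of the basement membrane (Col4a3, Col4a5, Col15a1) and Col8a1 and Col12a1. Col5a3 was the only one higher. Medians were -0.21, -0.10 and -0.08 for fibrillar, basement membrane and other chains, and groups did not overlap for 17 of 25, against 20.6% of tested genes. PBS libraries enter both this comparison and that of TNFα with PBS. With the neural library term, under which 1.1% of all tested genes were called, 5 collagens were lower: Col1a1, Col1a2, Col4a3, Col12a1 and Col15a1.

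**Figure D4:**
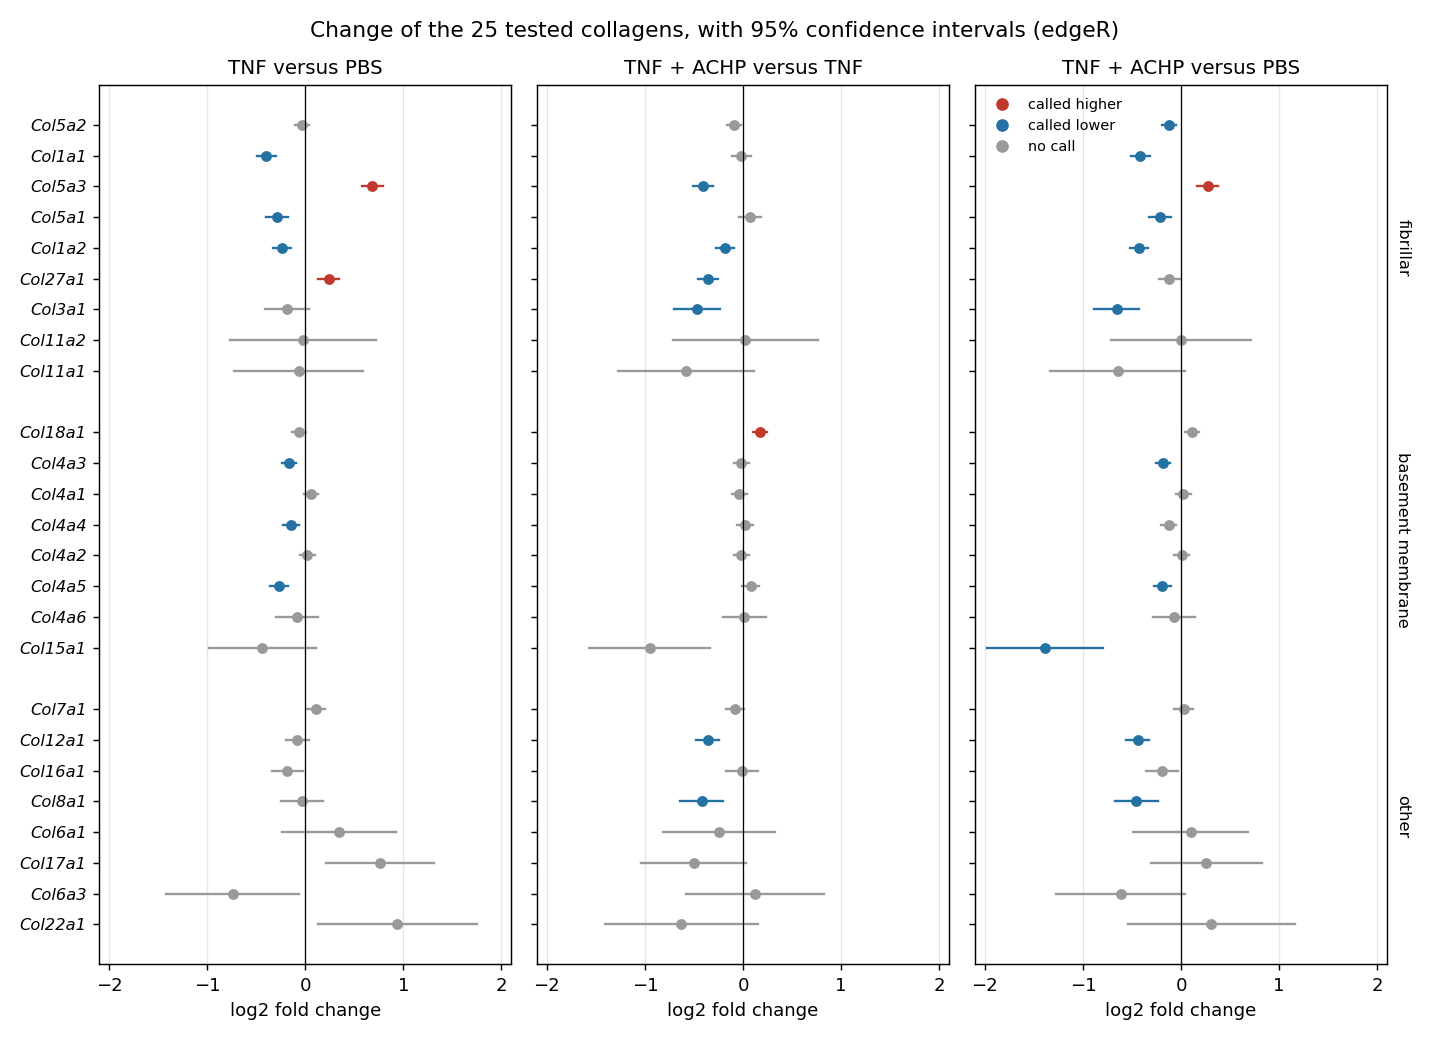
Log2 fold change of each of the 25 tested collagens in the 3 comparisons, with 95% confidence intervals from the edgeR fit, coloured by call. Col5a3 is at 0.68 for TNFα versus PBS, Col15a1 at -1.39 for both agents versus PBS, and intervals are widest for the chains with few counts.

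Of the collagens that are neither fibrillar nor of the basement membrane, Col12a1 and Col8a1 were lower with ACHP and 0 of 8 were called with TNFα. Col12a1 (chromosome 9, 79506273 to 79626113), a collagen that decorates type I fibres, was at 12.3, 11.6 and 11.9 RPKM with PBS, 11.4, 11.2 and 11.2 with TNFα, and 9.97, 8.09 and 8.37 with both agents. The last group was well below the others. TNFα gave -0.08 (95% interval -0.20 to 0.04, edgeR adjusted p = 0.48), ACHP on top lowered it by 0.36 (SE 0.06, edgeR adjusted p = 0.00035), and both agents against PBS gave -0.44 (SE 0.06, edgeR adjusted p = 7.4e-05).

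Col8a1 (chromosome 16, 57444621 to 57575100), a network collagen of vessel walls and the cornea, was at 1.41, 1.26 and 1.5 RPKM with PBS, 1.36, 1.36 and 1.36 with TNFα, and 0.96, 1.1 and 0.97 with both agents. Only the last group stood apart. ACHP on top of TNFα lowered it by 0.42 (SE 0.10, edgeR adjusted p = 0.016), and both agents against PBS gave -0.45 (SE 0.10, edgeR adjusted p = 0.01). The first call was lost without TNFα replicate 1, TNFα replicate 2, TNFα+ACHP replicate 1 or TNFα+ACHP replicate 3 (-0.42 to -0.39, edgeR adjusted p = 0.05 to 0.069), in DESeq2 (adjusted p = 0.057) and with the neural library term (-0.45, edgeR adjusted p = 0.34). The second was lost without TNFα+ACHP replicate 3 (-0.42, edgeR adjusted p = 0.055) and with that term (-0.48, edgeR adjusted p = 0.19).

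Col7a1, which forms the anchoring fibrils beneath epithelia (chromosome 9, 108782654 to 108813943), was the most abundant of this class at 19.3, 17.2 and 18.2 RPKM with PBS, 19.1, 19 and 21 with TNFα, and 18.9, 18.7 and 18.1 with both agents. It was not called in any comparison, with 0.11 for TNFα (95% interval 0.02 to 0.21, edgeR adjusted p = 0.18) and -0.08 for ACHP on top of it (95% interval -0.18 to 0.01, edgeR adjusted p = 0.32). Col16a1 (chromosome 4, 129941633 to 129993076), a fibril-associated collagen, stood at 4.34, 3.64 and 4.3 RPKM with PBS, 3.61, 3.3 and 3.89 with TNFα, and 3.55, 3.6 and 3.56 with both agents. PBS and TNFα overlapped, and it was not called, with -0.18 for TNFα (95% interval -0.34 to -0.02, edgeR adjusted p = 0.2). The 4 remaining tested chains of this class, Col6a1, Col6a3, Col17a1 and Col22a1, had at most 48 counts in a library and were not called. Of these, Col17a1, a transmembrane collagen of hemidesmosomes, had 15, 27 and 23 counts with PBS, 37, 33 and 36 with TNFα and 22, 32 and 27 with both agents, a TNFα difference of 0.76 (95% interval 0.21 to 1.31, edgeR adjusted p = 0.098).

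Too low to test were 19 collagens, 2 fibrillar and 17 of other types. The highest single count among them was 19, for Col2a1, the chain of cartilage collagen. Col20a1 reached 17, Col9a3 14 and Col8a2 12. Col24a1, Col6a2, Col6a4, Col9a2, Col10a1, Col14a1, Col23a1, Col25a1, Col26a1 and Col28a1 reached 4 to 9, and Col6a5, Col6a6, Col9a1, Col13a1 and Col19a1 at most 2. A change in these was not detectable at this depth. Type VI collagen, a beaded filament of most connective tissues, was thus measured only through Col6a1 and Col6a3.

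Genes that make, cut and bind collagen were examined by lists chosen with earlier results of these data known. Of 20 genes for hydroxylation and folding, all tested, 1 rose and 1 fell with TNFα (6.22% of all tested genes were called), 0 and 1 with ACHP added (7.17%), and 0 and 0 with both agents against PBS (6.04%), with medians of -0.05, -0.00 and -0.03. The list's shares of calls were thus near or below those of all genes. P4ha3, a subunit of prolyl hydroxylase, went from 2.38 ± 0.61 CPM with PBS to 4.15 ± 0.35 with TNFα and 1.98 ± 0.30 with both agents (SD, n = 3). Its log2 fold changes were 0.81 (SE 0.22, edgeR adjusted p = 0.033) and -1.06 (SE 0.23, edgeR adjusted p = 0.0057), the first lost without PBS replicate 3 or any 1 of the TNFα libraries (0.60 to 0.85, edgeR adjusted p = 0.072 to 0.17). P4ha1, the main such subunit, gave -0.15 with TNFα (edgeR adjusted p = 0.045), a call lost in 11 of the 18 other settings tried, among them DESeq2 and the omission of any 1 TNFα library. With the neural library term the ACHP difference of P4ha3 was -1.38 (edgeR adjusted p = 0.14).

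Of 13 genes for procollagen processing and cross-linking 10 were tested: 1 rose and 1 fell with TNFα (6.22% of all tested genes were called), 0 and 4 with ACHP added (7.17%), and 1 and 3 with both agents against PBS (6.04%), with medians of 0.08, -0.20 and -0.08. Pcolce2, an enhancer of procollagen cleavage, rose by 0.44 with TNFα (SE 0.09, edgeR adjusted p = 0.0044) and fell by 0.58 with ACHP added (SE 0.09, edgeR adjusted p = 0.00034). Lox, the cross-linking lysyl oxidase, was at 185 ± 7.57 CPM with PBS, 198.6 ± 5.51 with TNFα and 153.2 ± 8.27 with both agents (SD, n = 3), a fall of 0.37 with ACHP added (SE 0.04, edgeR adjusted p = 1.4e-05). Tll1, a procollagen protease, fell by 0.49 in that comparison (edgeR adjusted p = 0.0086, and 0.051 without TNFα replicate 1). Pcolce fell by 0.47 with both agents against PBS (SE 0.08, edgeR adjusted p = 0.00084). Its TNFα value of -0.29 (edgeR adjusted p = 0.029) lost its call without PBS replicate 2 or 3 or TNFα replicate 1 or 3. With the neural library term, Pcolce2 (-0.49, edgeR adjusted p = 0.23) and Lox (-0.31, 0.052) were not called for ACHP against TNFα, nor was Pcolce against PBS (-0.34, 0.18).

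Of 10 collagen receptors 9 were tested: 1 rose and 0 fell with TNFα (6.22% of all tested genes were called), 0 and 1 with ACHP added (7.17%), and 0 and 0 with both agents against PBS (6.04%), with medians of -0.01, -0.19 and -0.03. Both calls were on the same gene. Itga2, the collagen-binding integrin subunit of epithelia, went from 175 ± 8.13 CPM with PBS to 324.3 ± 8.42 with TNFα and 186.1 ± 14.2 with both agents (SD, n = 3). It rose by 0.89 with TNFα (SE 0.05, edgeR adjusted p = 1.3e-10) and fell by 0.80 with ACHP added (SE 0.05, edgeR adjusted p = 6.8e-10).

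Of 16 partners of collagen in the basement membrane, 2 rose and 0 fell with TNFα (6.22% of all tested genes were called), 0 and 3 with ACHP added (7.17%), and 1 and 3 with both agents against PBS (6.04%), with medians of -0.00, -0.08 and -0.00. Lama3 and Lamb3, subunits of the laminin of epithelial anchorage, rose with TNFα by 0.34 (SE 0.04, edgeR adjusted p = 8e-06) and 0.24 (SE 0.04, edgeR adjusted p = 0.00042). Lama3 fell by 0.27 with ACHP added (SE 0.04, edgeR adjusted p = 0.00012). Npnt, nephronectin, fell by 0.21 in that comparison (SE 0.03, edgeR adjusted p = 0.00056), a call lost with the neural library term (-0.22, edgeR adjusted p = 0.13).

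Of 15 matrix proteins that bind collagen 13 were tested: 0 rose and 4 fell with TNFα (6.22% of all tested genes were called), 3 and 2 with ACHP added (7.17%), and 2 and 5 with both agents against PBS (6.04%), with medians of -0.06, -0.12 and -0.13. Thbs1, a thrombospondin, fell by 0.22 with TNFα (SE 0.03, edgeR adjusted p = 4.6e-05) and Sparc, a collagen chaperone of the matrix, by 0.15 (edgeR adjusted p = 0.0096, and 0.063 without PBS replicate 2 or 0.059 without TNFα replicate 1). Thbs2 fell by 0.75 (SE 0.20, edgeR adjusted p = 0.025), a call lost without PBS replicate 2 or any 1 of the TNFα libraries. Bgn, the small proteoglycan biglycan, was lower by 0.40 with both agents against PBS (SE 0.07, edgeR adjusted p = 0.0021), while Tnc, tenascin C, was higher by 0.28 (SE 0.04, edgeR adjusted p = 0.00047). Bgn was at -0.43 with the neural library term (edgeR adjusted p = 0.062).

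Of 11 genes of collagen breakdown 8 were tested: 3 rose and 1 fell with TNFα (6.22% of all tested genes were called), 0 and 2 with ACHP added (7.17%), and 2 and 3 with both agents against PBS (6.04%), with medians of 0.02, -0.13 and -0.13. Mmp13, a collagenase that cuts fibrillar collagen, was at 5.49 ± 1.65 CPM with PBS, 15.9 ± 1.71 with TNFα and 2.32 ± 0.51 with both agents (SD, n = 3). It rose by 1.51 with TNFα (SE 0.16, edgeR adjusted p = 2.9e-06) and fell by 2.75 with ACHP added (SE 0.18, edgeR adjusted p = 3.7e-09). Mmp9, which digests denatured and type IV collagen, rose by 1.66 and fell by 0.81 in the same comparisons. Of the inhibitors of these proteases, Timp1 rose by 0.33 with TNFα (SE 0.05, edgeR adjusted p = 0.00017) and Timp3 fell by 0.32 (SE 0.04, edgeR adjusted p = 5.9e-05).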

How the data were processed

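Counts per Ensembl gene were deposited by the authors, who per the file headers made them with featureCounts 2.0.1 on Ensembl 109 for GRCm39, and per the submitters' processing notes used STAR, featureCounts and DESeq2 and name mm10. The table also holds exon lengths per the file headers, which gave RPKM from TMM-scaled CPM. Groups came from sample titles. At their defaults such counts leave out reads that overlap more than 1 gene and ignore strand. The tests used edgeR 4.0.16 under R 4.3.3: filterByExpr kept 14747 genes, TMM factors were 0.993 to 1.01, and the quasi-likelihood model, with a mean for each group, took in all 9 libraries (replicate coefficient of variation 4.01%). Standard errors came from the F statistic. Replicates of a group differed by more than sampling noise (chi-square per degree of freedom 1.81 to 5.995 between 2 libraries). In simulated data of 14547 genes for TNFα versus PBS the fit recovered 17 of 50 genes changed by 0.2 on the log2 scale, 40 of 50 at 0.4, 40 of 50 at 0.7 and 48 of 50 at 1, and 5 of 150 calls were false. The simulated counts were independent, with the fitted spread and no difference in neuron transcripts between libraries. The false calls counted there therefore do not cover error from such differences.

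The members and lists were chosen with earlier results of these data known. Values are given for each collagen called in any comparison, for the 3 with the highest mean RPKM of each class, and for the called genes of largest change in each list and comparison (at most 3), some only as counts. Results for some genes of the lists are not reported here. Alternatives were DESeq2 1.42.0, RLE factors, no filter, a filter of at least 1 CPM in at least 3 libraries, the 6 libraries of a comparison alone, the replicate number as a block, a term for libraries rich in neuron transcripts, log2 neuron marker level as a covariate, leaving out each library and, added after the data were seen, PBS replicate 1 as the only PBS library.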

Additional observations from a re-analysis of the deposited data

How the results depend on the processing

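Counts of called collagens moved by more than 1.5 times mainly in the fits that take neuron transcripts into account. With the neural library term, ACHP against TNFα called 0 higher and 2 lower in place of 1 and 6, and both agents against PBS called 5 lower in place of 10. In the same fit, calls over all tested genes dropped from 7.17% to 0.97% and from 6.04% to 1.1%. With log2 neuron level as a covariate these were 0 and 3, and 5 lower with 0 higher in place of 1, at 2.01% and 0.888% of all genes called. With PBS replicate 1 alone, TNFα raised 1 in place of 2, and both agents lowered 5, at 2.71% and 1.54% of all genes called. This fit assumes that the lone library varies like the other groups. In DESeq2 both agents raised 2, as Col18a1 was added. Leaving out 1 library gave 2 higher each time and 5 to 6 lower for TNFα, 1 each time and 3 to 7 for ACHP against TNFα (3 without TNFα replicate 1 or TNFα+ACHP replicate 3), and 1 to 2 and 7 to 11 for both agents against PBS. The cause of these moves was not tested. For ACHP against TNFα, the calls lost with the neural library term kept their direction. In that fit Col3a1 was at -0.34, Col1a2 at -0.14, Col5a3 at -0.32, Col8a1 at -0.45 and Col18a1 at 0.16. Without the term they were at -0.47, -0.18, -0.41, -0.42 and 0.17. A call can be lost there through a wider error as well as a smaller difference.

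Replicate numbers are shared by the groups, but same-numbered deviations correlated at -0.13 to 0.17, so the numbers were not taken as pairs. With the replicate block the calls were 2 higher and 6 lower, 1 and 6, and 1 and 11, the last gaining Col4a4. Of 26 collagen calls, 11 held in every one of the 18 settings in which they were tested. Among 1348 collagen values 1280 kept their side of the threshold, 52 lost a call, 16 gained one and 0 reversed. Of 44 calls on named genes of the other lists, 17 held in every setting. The depth limits Col11a1, Col11a2, Col15a1 and the 4 rare chains of other types to intervals wider than 1 log2 unit.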
